A study of Mus musculus with 8 samples.

Results

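The expression of 43 interferon-stimulated genes was examined in 4T1 cells, a mouse triple-negative breast cancer line that arose from a mammary tumor of a BALB/c mouse. The genes were taken as a list of known interferon-inducible genes, with no threshold on a measured value, though earlier results of these data were known when it was drawn up, and each symbol matched a single gene among the 54532 genes listed. Of the 43 members, 30 passed the filter on low counts (a level above 1 CPM, the count scaled to the library total, in 2 or more libraries) and were tested among 12704 genes, and 13 were not tested. The 4T1 cells carried either a scramble control (scramble) or a short hairpin RNA against the MCT-1 gene (shMCT-1), and each was treated for 48 h with control IgG or with 100 ng/ml of an antibody against the mouse interleukin-6 receptor (anti-IL-6R). The resulting 4 groups, written as scramble + IgG, shMCT-1 + IgG and likewise with anti-IL-6R, held 2 libraries each, which the submitters describe as independent biological replicates. All cells were grown under puromycin selection, and the difference between scramble and shMCT-1 is that between a single control line and a single silenced line.

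Interferons bind cell surface receptors that signal through Janus kinases to transcription factors. Type I and type III interferons act mainly through the interferon-stimulated response element (ISRE) of target promoters, which STAT2 and IRF9 help to bind, and interferon-gamma acts mainly through gamma-activated sites (GAS). The genes so induced include sensors of foreign nucleic acid, the ubiquitin-like modifier ISG15 with its enzymes, antiviral effectors and large GTPases, and in tumors their level is used as a readout of interferon signaling.

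The libraries held 19839299 to 33063570 counts (median 23774335), so that 1 CPM stood for 19.8 to 33.1 counts, and each shMCT-1 library was smaller than each scramble library. Mcts1, the gene silenced in shMCT-1, measured 15.4, 11.8, 12.8 and 13.5 CPM in the 4 scramble libraries and 6.32, 6.18, 6.70 and 4.92 CPM in the 4 shMCT-1 libraries, where it fell by 1.10 ± 0.12 on the log2 scale (standard error, adjusted p = 1.13e-05, edgeR's quasi-likelihood test). Of 10 epithelial markers, 8 were tested, of which 5 rose in shMCT-1 and 2 fell. Krt8 averaged 1085 CPM in scramble and 1337 CPM in shMCT-1, the basal keratin Krt14 61.8 and 93.2 CPM, and Epcam 4.37 and 51.3 CPM, while Esrp1 fell by 0.77 and Cldn3 by 0.42 on the log2 scale and Krt5 was at 0 in every library. Here and below, the values of a gene over the 4 libraries of a background are given with the IgG replicates first and the anti-IL-6R replicates second.

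The promoters were searched for the sequence through which interferons act. A window of 300 bases, from 250 before to 50 after the annotated start, was found for 32 of the 43 members in RefSeq (GRCm38.p6). The letters GAAANNGAAA, a core of the ISRE searched on both strands (TTTCNNTTTC on the other), occurred in the windows of 14 of these 32 members (43.8%) and of 3.99% of all 27025 genes with a window. The GAS letters TTCNNNGAA, which read the same on both strands, occurred in 28.1% of the members and 9.55% of all genes. A stretch for each of 8 members that rose, fell, did not pass the test or lay under the filter is shown, 5′ to 3′ along the strand of its gene, with all ISRE matches in capitals.

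Isg15, rose, chr4:156200855-156200916, minus strand: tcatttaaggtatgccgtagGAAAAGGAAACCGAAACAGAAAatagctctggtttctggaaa
Bst2, rose, chr8:71537567-71537622, minus strand: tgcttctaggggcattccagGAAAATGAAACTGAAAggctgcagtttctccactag
Irgm1, rose, chr11:48871421-48871470, minus strand: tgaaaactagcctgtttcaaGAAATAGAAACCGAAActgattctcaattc
Gbp3, rose, chr3:142559979-142560034, plus strand: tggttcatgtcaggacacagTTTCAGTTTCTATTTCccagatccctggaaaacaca
Gbp2, fell, chr3:142620584-142620633, plus strand: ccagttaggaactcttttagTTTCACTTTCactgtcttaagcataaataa
Stat2, did not pass the test, chr10:128270256-128270305, plus strand: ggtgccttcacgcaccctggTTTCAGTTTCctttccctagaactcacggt
Ifit1, under the filter, chr19:34640765-34640833, plus strand: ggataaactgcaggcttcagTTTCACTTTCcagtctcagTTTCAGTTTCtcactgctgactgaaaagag
Rsad2, under the filter, chr12:26456543-26456592, minus strand: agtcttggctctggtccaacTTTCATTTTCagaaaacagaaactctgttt

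The matches of Isg15 began 78, 72 and 66 bases before the start and overlapped each other, as did the pairs of Bst2, Irgm1 and Gbp3. Across both treatments, the letters were present in 5 of 16 members with a window that rose in shMCT-1 (31.2%), in both members that fell, in 2 of 7 that did not pass the test and in 5 of 7 that were not tested. By role, all 5 interferon-inducible GTPases with a window held the letters and none of the 5 members grouped as other interferon-inducible genes did. A match is a description of these letters only, and no binding was measured.

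In shMCT-1 vs. scramble across both treatments, 21 of the 30 tested members passed an adjusted p of 0.05, against 69.0% of all genes tested. Of these, 19 were higher in shMCT-1 (63.3% of the tested members, against 35.0% of all genes) and 2 were lower (6.67%, against 34.0%). The share of members called was thus close to that of all genes, while the calls lay mostly on the higher side. The median log2 fold change of the tested members was 0.38, and that of all genes was 0.0099. Irf8, Ifih1, Isg15, Oasl1, Oasl2, Bst2, Lgals3bp and Sp100 rose by 2.33 to 3.79 on the log2 scale, and Irgm1 and Gbp3 rose by 1.04 and 1.07. The other 9 members that rose changed by 0.15 to 0.75, and Ddx58 and Gbp2 were lower.

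**Figure D1:**
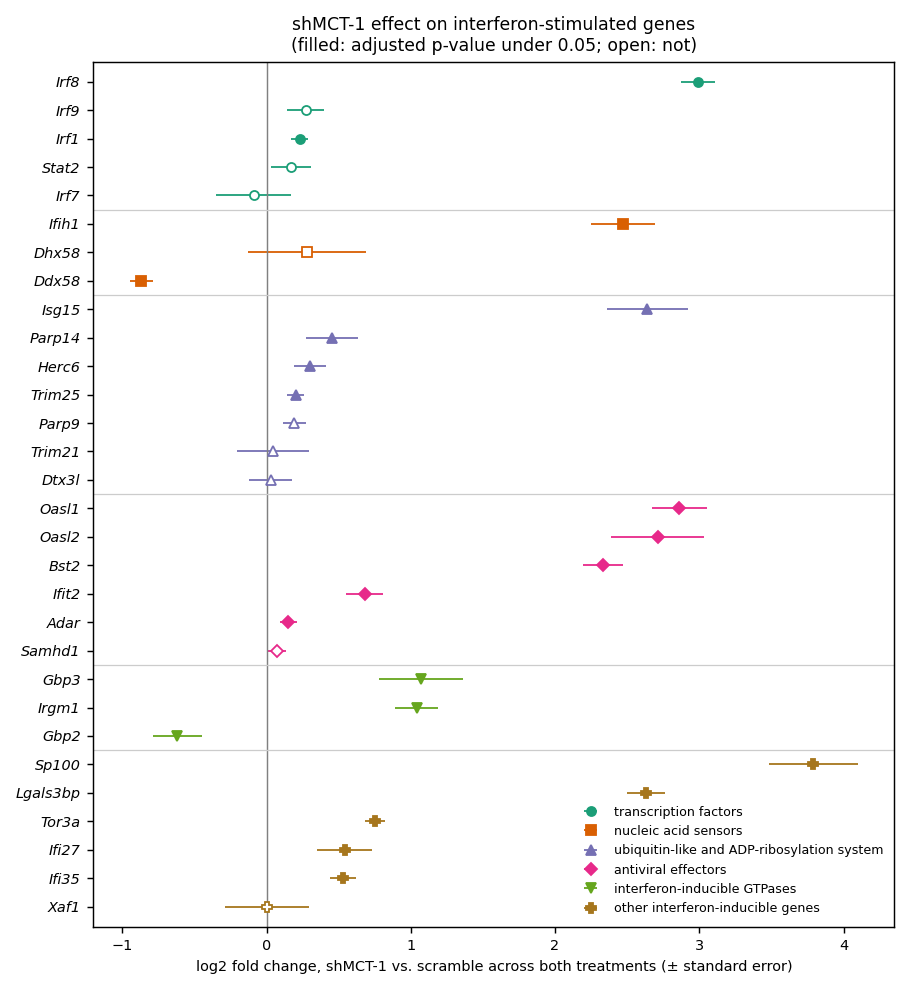
Log2 fold change of shMCT-1 vs. scramble across both treatments (horizontal axis, bars are standard errors) for the 30 tested members, grouped by role. Filled points passed an adjusted p of 0.05; 8 members lie at 2.33 or above, and Ddx58 and Gbp2 are the filled points below 0.

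Of the tested members, 6 (Dhx58, Isg15, Oasl1, Oasl2, Gbp3 and Sp100) passed the filter through shMCT-1 libraries alone, which favors calls on the higher side. Of the other 24 tested members, 14 rose and 2 fell. Among the 18 members with a mean of at least 5 CPM over the 8 libraries, 12 rose and Ddx58 fell. That mean includes the shMCT-1 libraries, so this cut also favors members that are high there. Irf8, Lgals3bp and Bst2 averaged 1.48, 1.88 and 4.18 CPM in scramble. The shares of all genes under these same conditions were not taken, so these counts have no matching background. The 4 shMCT-1 libraries lay above the 4 scramble libraries without overlap for 14 of the 30 tested members, against 29.9% of all genes, and below them for 2 members, against 34.2% of all genes. All 19 members that rose exceeded the median log2 fold change of the tested genes on their own chromosome, and both that fell lay under it, the medians ranging from -0.37 to 0.21. With medians this small, genes picked by the direction of their call would mostly do so. A regional change was therefore not tested. In bulk RNA, fewer cells expressing a gene and less RNA per cell cannot be told apart.

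Among the transcription factors, 2 of 5 rose (40.0%, against 35.0% of all genes) and none fell (against 34.0%). Irf8, an interferon regulatory factor known for its role in myeloid cells, measured 1.67, 1.58, 1.44 and 1.24 CPM in scramble and 11.3, 12.2, 11.2 and 10.7 CPM in shMCT-1. All shMCT-1 libraries were far above all scramble libraries, with a log2 fold change of 2.99 ± 0.12 (7.93-fold, adjusted p = 1.37e-08). Irf1, an early responder to interferon-gamma, measured 27.1, 28.5, 28.2 and 29.0 CPM in scramble and 31.2, 31.1, 33.8 and 31.4 CPM in shMCT-1. Its groups did not overlap although the rise was small, 0.23 ± 0.06 (adjusted p = 0.00543). STAT2 and IRF9 act together at the ISRE. Stat2 measured 8.03, 7.76, 7.36 and 8.41 CPM in scramble and 10.0, 9.85, 5.85 and 8.79 CPM in shMCT-1, where the first anti-IL-6R library was the lowest of all 8. Irf9 measured 6.43, 5.35, 5.41 and 6.87 CPM in scramble and 6.45, 8.36, 6.05 and 7.24 CPM in shMCT-1. Irf7, which drives the transcription of interferon-alpha genes, measured 1.56, 1.45, 0.672 and 0.968 CPM in scramble and 1.56, 0.896, 0.706 and 1.0 CPM in shMCT-1. The groups of these 3 genes overlapped and none passed the test (Stat2 0.17 ± 0.14, adjusted p = 0.299; Irf9 0.27 ± 0.13, adjusted p = 0.0946; Irf7 -0.09 ± 0.26, adjusted p = 0.776). Without the first shMCT-1 + anti-IL-6R library, Stat2 passed it, at 0.31 (adjusted p = 0.0163).

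Since IRF8 is best known from blood cells, leukocyte markers were read beside it. Of 14 leukocyte markers, 12 were under 1 CPM in every library, and Tyrobp, Adgre1 and Cd3e were at 0 in all of them. The summed level of the list was 4.38 to 5.30 CPM in scramble and 8.92 to 10.9 CPM in shMCT-1. Cd68, a lysosomal glycoprotein, rose from 3.06 to 6.41 CPM and Lcp1, an actin-bundling protein, from 0.478 to 2.17 CPM, while the pan-leukocyte gene Ptprc averaged 0.0975 and 0.067 CPM. Lcp1 had at most 0.736 CPM in scramble, so it passed the filter through shMCT-1 libraries alone. Spi1 lay under the filter and went the other way, from a mean of 0.353 CPM in scramble to 0.0827 CPM in shMCT-1, without overlap. The part of these markers in the level of Irf8 was not tested. Fibroblast markers summed to 15.3 to 17.3 CPM in scramble and 12.7 to 16.3 CPM in shMCT-1, and endothelial markers to 0.096 to 0.332 and 0.554 to 1.91 CPM. The fibroblast sum was mostly Pdgfra (means of 15.6 and 13.5 CPM), which did not pass the test. The fibroblast marker Col1a1 rose from 0.421 to 1.31 CPM and the endothelial marker Cdh5 from 0.0311 to 0.921 CPM. Both of these passed the filter through shMCT-1 libraries alone.

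Of the 3 tested nucleic acid sensors, 1 rose and 1 fell (33.3% each, against 35.0% and 34.0% of all genes). Ifih1, which encodes MDA5, a sensor of long double-stranded RNA, measured 1.60, 1.04, 0.640 and 1.24 CPM in scramble and 7.46, 5.42, 5.54 and 5.78 CPM in shMCT-1, a rise of 2.47 ± 0.22 (5.55-fold, adjusted p = 3.78e-06). Ddx58, which encodes RIG-I, a sensor of RNA with a 5′ triphosphate, measured 48.8, 51.5, 47.1 and 47.8 CPM in scramble and 28.1, 24.6, 22.4 and 28.3 CPM in shMCT-1. It fell by 0.87 ± 0.08 on the log2 scale (1.82-fold lower, adjusted p = 3.63e-06). The libraries of the 2 backgrounds did not overlap for either sensor. Per kilobase of exon, Ddx58 remained the more abundant of the pair, at a mean of 6.92 in scramble and 3.67 in shMCT-1 (CPM per kilobase), against 0.138 and 0.741 for Ifih1. Dhx58, encoding LGP2, a relative of both without a signaling domain, measured 0.472, 0.788, 0.544 and 0.756 CPM in scramble and 0.503, 1.19, 1.01 and 0.319 CPM in shMCT-1. Its groups overlapped (0.28 ± 0.41, adjusted p = 0.558). The summed level of the sensors, carried mostly by Ddx58, was 48.6 to 53.3 CPM in scramble and 29.4 to 36.7 CPM in shMCT-1.

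Of the tested members of the ubiquitin-like and ADP-ribosylation system, 4 of 7 rose (against 35.0% of all genes) and none fell (against 34.0%). Isg15 encodes the modifier itself and measured 0.436, 0.498, 0.608 and 0.665 CPM in scramble. In shMCT-1 it stood at 4.39 and 4.56 CPM with IgG and at 2.07 and 3.0 CPM with anti-IL-6R. The shMCT-1 libraries were all above those of scramble (2.64 ± 0.28, 6.24-fold, adjusted p = 1.1e-05), and those with anti-IL-6R were the lower pair. Parp14, a mono-ADP-ribosyltransferase, measured 5.52, 5.48, 5.41 and 4.11 CPM in scramble and 8.01, 6.82, 4.33 and 7.92 CPM in shMCT-1 (0.45 ± 0.18, adjusted p = 0.0396). Herc6, the mouse ligase for ISG15, measured 6.18, 6.60, 6.78 and 7.02 CPM in scramble and 7.87, 8.66, 6.80 and 8.33 CPM in shMCT-1 (0.30 ± 0.11, adjusted p = 0.0265). The first shMCT-1 + anti-IL-6R library lay within the scramble range for both genes. Trim25, a ubiquitin ligase for RIG-I, measured 74.7, 62.1, 74.8 and 73.9 CPM in scramble and 79.2, 78.9, 77.1 and 81.5 CPM in shMCT-1, without overlap (0.20 ± 0.06, adjusted p = 0.0155). Trim21, a cytosolic antibody receptor, measured 1.63, 1.08, 1.25 and 0.938 CPM in scramble and 1.33, 1.49, 0.756 and 1.32 CPM in shMCT-1. Dtx3l, a ubiquitin ligase that pairs with PARP9, measured 19, 17.6, 19.3 and 18.8 CPM in scramble and 21.2, 16.5, 12.9 and 23.0 CPM in shMCT-1. These 2 genes overlapped between backgrounds (adjusted p = 0.881 and 0.879), and the shMCT-1 libraries of Dtx3l spread widely. Parp9 averaged 12.6 ± 0.816 CPM in scramble and 13.9 ± 0.877 CPM in shMCT-1 (SD, n = 4 libraries) and did not pass the edgeR test (adjusted p = 0.0502). Parp9 and Dtx3l overlap on opposite strands over 9.40% and 8.0% of their exon bases, so that reads there can be assigned to either.

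The calls of Herc6 and Parp14 were close to the threshold, and leaving out any of several libraries ended them. Herc6 lost its call without scramble + IgG replicate 1, scramble + anti-IL-6R replicate 1, either shMCT-1 + IgG replicate or shMCT-1 + anti-IL-6R replicate 2 (0.25 to 0.31, adjusted p = 0.0533 to 0.0892). Parp14 lost it without either scramble + IgG replicate, scramble + anti-IL-6R replicate 2, either shMCT-1 + IgG replicate or shMCT-1 + anti-IL-6R replicate 2 (0.27 to 0.49, adjusted p = 0.0517 to 0.161). Parp9 gained a call without scramble + IgG replicate 2 (0.23, adjusted p = 0.022) and with edgeR's filterByExpr (0.21, adjusted p = 0.0391).

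Antiviral effectors rose in 5 of 6 tested members, against 35.0% of all genes, and 7 of the 13 effectors were not tested. Of those that rose, Oasl1 and Oasl2 passed the filter through shMCT-1 libraries alone. Oasl1 and Oasl2 encode relatives of the oligoadenylate synthetases. Oasl1 measured 1.16, 0.622, 0.768 and 0.998 CPM in scramble and 6.91, 6.61, 5.24 and 6.51 CPM in shMCT-1, a rise of 2.86 ± 0.19 (7.26-fold, adjusted p = 5.47e-07). Oasl2 measured 0.472, 0.456, 0.160 and 0.302 CPM in scramble and 3.07, 2.22, 1.11 and 2.37 CPM in shMCT-1, a rise of 2.71 ± 0.32 (6.56-fold, adjusted p = 2.67e-05). Neither gene overlapped between backgrounds. Bst2, encoding tetherin, which holds budding virions at the cell surface, ranged from 3.03 to 5.05 CPM in scramble and from 17.8 to 22.5 CPM in shMCT-1 (2.33 ± 0.14, 5.04-fold, adjusted p = 2.22e-07). Per kilobase of exon, Bst2 rose from a mean of 4.63 in scramble to 22.7 in shMCT-1 (CPM per kilobase), above Trim25, which stood at 12.4 and 13.8. Ifit2, of the IFIT family of RNA-binding proteins, ranged from 5.47 to 7.47 CPM in scramble and from 7.21 to 10.7 CPM in shMCT-1 (0.68 ± 0.13, adjusted p = 0.000689). Adar, the enzyme of adenosine-to-inosine editing, measured 64.8, 58.2, 63.6 and 66 CPM in scramble and 65.4, 68.4, 66.3 and 70.1 CPM in shMCT-1. Its call was narrow (0.15 ± 0.06, adjusted p = 0.0351) and was lost without scramble + IgG replicate 2, either scramble + anti-IL-6R replicate, either shMCT-1 + IgG replicate or shMCT-1 + anti-IL-6R replicate 2 (0.12 to 0.16, adjusted p = 0.0598 to 0.105). Adar shares 16.8% of its exon bases with Chrnb2 on the opposite strand. Samhd1, a dNTP hydrolase that limits reverse transcription, measured 80.4, 74.4, 79.8 and 79.3 CPM in scramble and 79.8, 74.3, 78.1 and 86.8 CPM in shMCT-1. These ranges overlapped and the gene did not pass the test (0.07 ± 0.06, adjusted p = 0.286).

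The 3 tested GTPases of the interferon-inducible families did not move one way. Irgm1, which acts in autophagy and in the control of other immunity-related GTPases, measured 2.36, 2.24, 2.91 and 2.51 CPM in scramble and 4.62, 5.42, 4.18 and 5.65 CPM in shMCT-1 (1.04 ± 0.15, adjusted p = 0.000138). Gbp3 measured 0.908, 0.830, 0.448 and 1.06 CPM in scramble and 1.65, 1.32, 1.56 and 2.09 CPM in shMCT-1 (1.07 ± 0.29, adjusted p = 0.00636). Gbp2 measured 3.52, 3.49, 2.66 and 3.02 CPM in scramble and 2.01, 2.30, 1.51 and 2.14 CPM in shMCT-1, a fall by 0.62 ± 0.17 (adjusted p = 0.00697). None of the 3 overlapped between backgrounds. Gbp2 and Gbp3 encode guanylate-binding proteins of the same cluster on chromosome 3, and both promoters above hold the ISRE letters. Gbp2b, a close relative of Gbp2, was also lower (fell by 0.89 ± 0.25, adjusted p = 0.00881), and reads shared between such copies are uncertain.

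**Figure D2:**
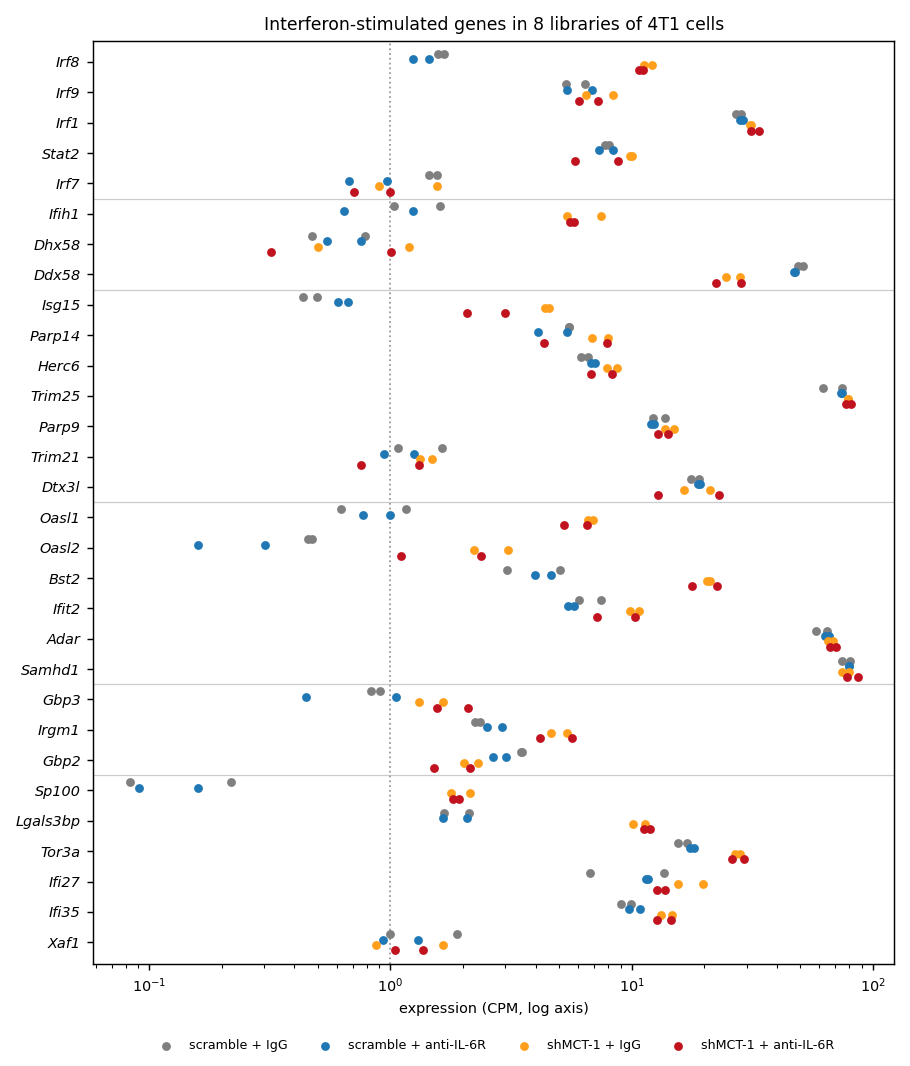
CPM of the 30 tested members in each of the 8 libraries (log axis; the dotted line marks 1 CPM), one point per library, colored by group, with roles separated by lines. Sp100, Isg15, Oasl1 and Oasl2 lie near or under 1 CPM in scramble and above it in shMCT-1, whereas Ddx58 lies at 47.1 to 51.5 CPM in scramble and at 22.4 to 28.3 CPM in shMCT-1.

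Of the other interferon-inducible genes, 5 of 6 tested members rose, against 35.0% of all genes. Sp100, a component of PML nuclear bodies, measured 0.218, 0.0830, 0.160 and 0.0907 CPM in scramble and 1.78, 2.13, 1.92 and 1.82 CPM in shMCT-1. Its log2 fold change, 3.79 ± 0.31, was the largest of the tested members (13.8-fold, adjusted p = 1.94e-06), but the fold rests on 2 to 6 counts in each scramble library. Copies of Sp100 are repeated on mouse chromosome 1, so the assignment of its reads is uncertain. Lgals3bp, a secreted glycoprotein that binds galectins, measured 1.67, 2.12, 2.08 and 1.66 CPM in scramble and 11.4, 10.1, 11.3 and 11.9 CPM in shMCT-1 (2.63 ± 0.13, 6.17-fold, adjusted p = 6.08e-08). Tor3a, a torsin-family ATPase, ranged from 15.6 to 18.1 CPM in scramble and from 26.1 to 29.2 CPM in shMCT-1 (0.75 ± 0.07, adjusted p = 4.13e-06). These 3 genes were higher in every shMCT-1 library than in any scramble library. Ifi35 measured 9.95, 9.05, 9.76 and 10.8 CPM in scramble and 14.7, 13.3, 14.5 and 12.7 CPM in shMCT-1, again without overlap (0.53 ± 0.09, adjusted p = 0.000273). Ifi27 measured 13.6, 6.72, 11.7 and 11.5 CPM in scramble and 15.5, 19.7, 12.7 and 13.8 CPM in shMCT-1 (0.54 ± 0.19, adjusted p = 0.0248), and its ranges overlapped. Its call was lost without shMCT-1 + IgG replicate 2 (0.41, adjusted p = 0.0886). Xaf1, an antagonist of the apoptosis inhibitor XIAP, measured 1.89, 0.996, 0.928 and 1.30 CPM in scramble and 0.870, 1.66, 1.36 and 1.05 CPM in shMCT-1, overlapping throughout (adjusted p = 0.99).

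The 13 members that were not tested include several genes often used as interferon readouts. They were Ifit1, Ifit3, Mx1, Mx2, Rsad2, Cmpk2 and Rtp4 among the antiviral effectors, Gbp7, Igtp and Iigp1 among the GTPases, Zbp1 among the sensors, the ISG15 protease Usp18, and Ifi44. Their summed level was 1.71, 1.33, 1.31 and 0.938 CPM in scramble and 4.62, 4.61, 3.88 and 4.55 CPM in shMCT-1. The mean of each of the 13 was higher in shMCT-1, but the share of all untested genes with a higher mean was not taken. For Mx1, Mx2 and Iigp1 the direction rests on at most 2 counts in any library. Ifit1, whose product binds viral RNA caps, measured 0.363, 0.207, 0.288 and 0.121 CPM in scramble and 0.732, 0.810, 0.706 and 1.27 CPM in shMCT-1. Rsad2, encoding viperin, measured 0.109, 0.0415, 0.0320 and 0 CPM in scramble and 0.503, 0.384, 0.202 and 0.410 CPM in shMCT-1. Both genes lay higher in every shMCT-1 library than in any scramble library. So did Ifit3, Rtp4, Gbp7, Igtp and Ifi44, which makes 7 of the 11 untested members with at least 8 counts in all. Among the 7087 untested genes with at least 8 counts, 5.81% lay above without overlap, and 17.8% lay below, as none of these members did. In counts not scaled to the library totals, Gbp7, Rtp4 and Igtp tied or overlapped between backgrounds. Their highest scramble counts were 2, 4 and 6, and their lowest shMCT-1 counts 2, 4 and 5. Mx1, which encodes a dynamin-like antiviral GTPase, had counts in 1 library only, and Mx2 is annotated as a polymorphic pseudogene. These 13 genes were not in the fit, so their levels are given without a fold change or a test.

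**Figure D3:**
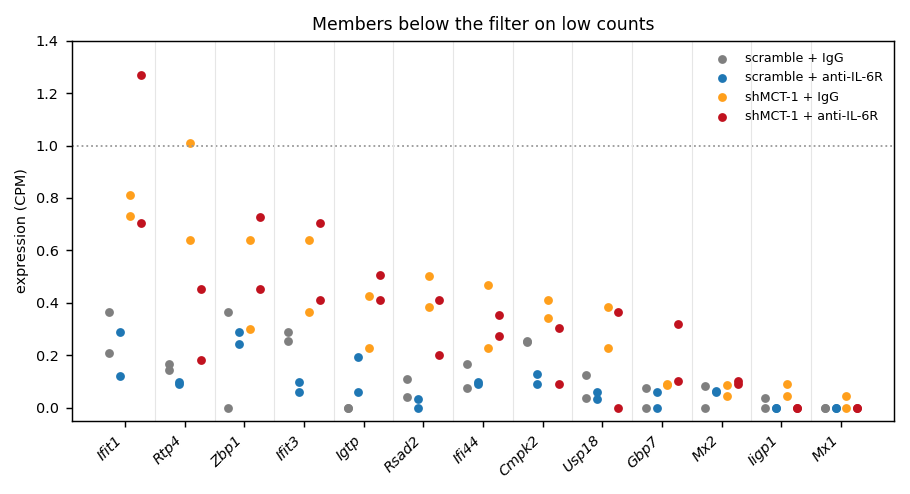
CPM of the 13 members under the filter in each of the 8 libraries (the dotted line marks 1 CPM), one point per library, colored by group and ordered by the mean in shMCT-1. Ifit1 and Rtp4 are the genes with a library above 1 CPM, and in 7 of the 13 the shMCT-1 points lie above all scramble points.

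The effect of shMCT-1 was then read within each treatment. The 2 comparisons share no library but come from the same fit, with a common estimate of the spread. Within IgG, 17 of the 30 tested members were called against 54.4% of all genes, 15 higher (28.3% of all genes) and 2 lower (26.2%). Within anti-IL-6R, 15 were called against 54.3% of all genes, 14 higher (26.9%) and 1 lower (27.3%). The median log2 fold change of the tested members was 0.48 and 0.25, and that of all genes 0.011 and 0.008. Irf8, Ifih1, Isg15, Ifit2, Oasl1, Oasl2, Bst2, Irgm1, Ifi35, Lgals3bp, Sp100 and Tor3a were higher in both comparisons, and Ddx58 was lower in both. The sign was shared by 25 of the 30 members, the exceptions being Stat2, Irf7, Trim21, Dtx3l and Xaf1, none of which passed a test. Over these 30 genes, which are not independent replicates and whose libraries were scaled together, Pearson's r was 0.963 and Spearman's rho was 0.906. The 30 include the 6 members that passed the filter through shMCT-1 libraries alone, which favors positive values in both comparisons. The correlation without these 6 was not taken.

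**Figure D4:**
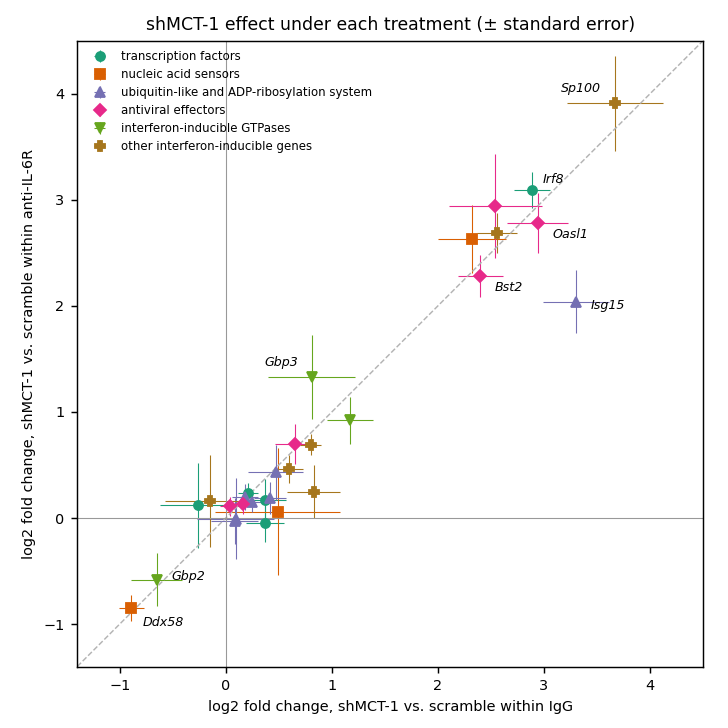
Log2 fold change of shMCT-1 vs. scramble within IgG (horizontal axis) and within anti-IL-6R (vertical axis) for the 30 tested members, with standard errors; symbols mark roles and the dashed line marks equal values. Isg15 lies under the line, at 3.30 within IgG and 2.04 within anti-IL-6R, and Ddx58 and Gbp2 lie at the lower left.

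A single treatment gave the call for 6 members. Herc6 (0.42 ± 0.15, adjusted p = 0.0415), Trim25 (0.25 ± 0.09, adjusted p = 0.0442) and Ifi27 (0.83 ± 0.25, adjusted p = 0.0173) were higher within IgG, where Gbp2 was lower (-0.65 ± 0.24, adjusted p = 0.0429). Irf1 (0.24 ± 0.09, adjusted p = 0.0409) and Gbp3 (1.33 ± 0.40, adjusted p = 0.0188) were higher within anti-IL-6R. The difference between treatments was tested by the interaction, which none of the 6 passed (adjusted p = 1.0 for each), so these calls are not shown to differ between IgG and anti-IL-6R. They were also narrow. The calls of Herc6, Trim25 and Gbp2 within IgG and of Irf1 within anti-IL-6R were each lost when most single libraries were left out. For Herc6 (0.34 to 0.48, adjusted p = 0.0617 to 0.191) and Gbp2 (-0.76 to -0.56, adjusted p = 0.0714 to 0.174) this held for each library other than those of shMCT-1 + anti-IL-6R. For Trim25 (0.14 to 0.25, adjusted p = 0.0881 to 0.225) it held for scramble + IgG replicate 2 and for each replicate of scramble + anti-IL-6R and shMCT-1 + IgG. For Irf1 (0.20 to 0.26, adjusted p = 0.0625 to 0.197) it held for each replicate of scramble + anti-IL-6R and shMCT-1 + IgG and for shMCT-1 + anti-IL-6R replicate 1. Gbp3 within anti-IL-6R lost its call without scramble + anti-IL-6R replicate 1 (0.85) or shMCT-1 + anti-IL-6R replicate 2 (1.12), and Ifi27 within IgG without scramble + IgG replicate 2 (0.43) or shMCT-1 + IgG replicate 2 (0.65). Of the members called under both treatments, Ifit2 lost its call within IgG without scramble + IgG replicate 1 (0.49) or shMCT-1 + IgG replicate 2 (0.59). Within anti-IL-6R, Ifit2 lost it without replicate 2 of either background (0.65 and 0.43), Irgm1 without scramble + anti-IL-6R replicate 2 (0.80), and Ifi35 without replicate 1 of either background (0.39 and 0.36).

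No member passed the test for anti-IL-6R vs. IgG. In scramble, edgeR's quasi-likelihood test called 0 of the 30 members and 0.0% of all genes, and 1 member and 166 genes (1.31%) had an unadjusted p under 0.05. In shMCT-1 it called 0 members and 0.0% of all genes, and 2 members and 505 genes (3.98%) had an unadjusted p under 0.05. The interaction called 0 members and 0.0% of all genes, with 1 member and 315 genes (2.48%) at an unadjusted p under 0.05. DESeq2 likewise called 0 members in each, and 0, 11 and 6 genes, and edgeR's exact test called 0 members in scramble and in shMCT-1, and 10 and 14 genes. The median log2 fold change of the members was -0.015 in scramble and -0.086 in shMCT-1, beside 0.0089 and -0.0067 for all genes. In shMCT-1, 23 of the 30 members were below 0, against 6626 of all 12704 genes. The members were measured in the same libraries, so their signs are not independent.

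The members with an unadjusted p under 0.05 were Irf7, Stat2 and Isg15. With anti-IL-6R, Irf7 averaged 0.820 ± 0.209 CPM in scramble against 1.51 ± 0.0776 CPM with IgG (SD, n = 2), a log2 fold change of -0.88 ± 0.37 (edgeR unadjusted p = 0.0371, adjusted p = 1.0). In shMCT-1, Stat2 averaged 7.32 ± 2.08 CPM with anti-IL-6R against 9.94 ± 0.122 CPM with IgG (-0.43 ± 0.18, edgeR unadjusted p = 0.0399, adjusted p = 1.0). Isg15 averaged 2.54 ± 0.663 CPM against 4.48 ± 0.120 CPM in shMCT-1 (-0.81 ± 0.26, edgeR unadjusted p = 0.0105, adjusted p = 1.0). In scramble it averaged 0.637 ± 0.0406 CPM with anti-IL-6R against 0.467 ± 0.0438 CPM with IgG, and its interaction was -1.25 ± 0.44 (edgeR unadjusted p = 0.0185, adjusted p = 1.0). The anti-IL-6R and IgG replicates did not overlap in these comparisons, but with 2 libraries against 2 an exact permutation test cannot give a p under 0.333.

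**Figure D5:**
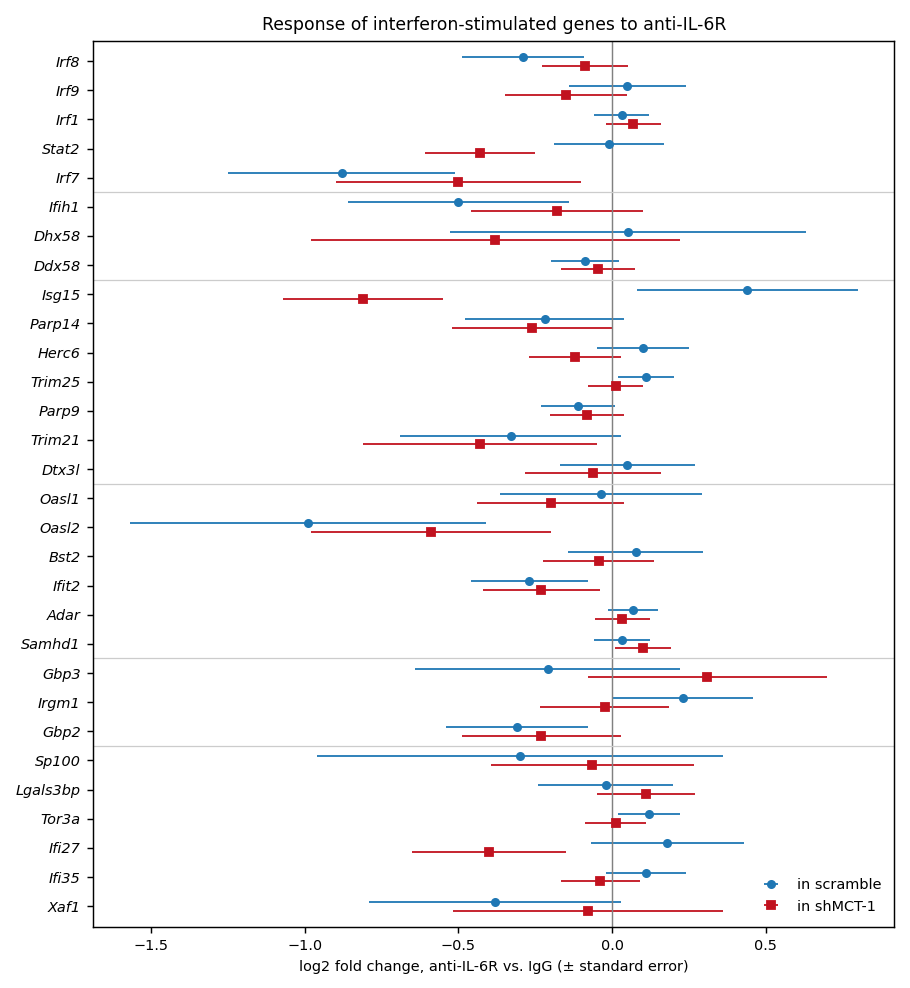
Log2 fold change of anti-IL-6R vs. IgG in scramble (circles) and in shMCT-1 (squares) with standard errors for the 30 tested members. No value passed the adjusted threshold; Isg15 lies at 0.44 in scramble and at -0.81 in shMCT-1.

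The other genes of the pathway were read from lists, in the same fit and across both treatments. Of 21 interferon genes, 15 were at 0 in all 8 libraries, among them Ifnb1, and none passed the filter. The largest count was 15, for Ifna13, which averaged 0.252 CPM in scramble and had no count in shMCT-1. Among 6 interferon receptor genes, 1 rose and 2 fell (16.7% and 33.3%, against 35.0% and 34.0% of all genes). Ifnlr1, the specific chain of the interferon-lambda receptor, had no more than 0.0302 CPM in any scramble library and 1.51 to 1.88 CPM in shMCT-1. Ifnlr1 thus passed the filter through shMCT-1 libraries alone, which favors a call on the higher side. Il10rb, its partner chain, fell by 0.35 ± 0.09 (adjusted p = 0.00543), and Ifnar1, a chain of the type I receptor, fell by 0.18 ± 0.06 (adjusted p = 0.0144), a call that was lost without a filter on low counts (-0.17, adjusted p = 0.104). Ifnar2, Ifngr1 and Ifngr2 did not pass the test (adjusted p = 0.0912 to 0.584), but Ifngr1 was called higher without shMCT-1 + anti-IL-6R replicate 2 (0.21).

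Of the receptor kinases, Jak1 fell by 0.92 ± 0.07 (from 249 to 127 CPM, adjusted p = 1.37e-06), and its libraries did not overlap between backgrounds. Jak2 and Tyk2 did not pass the test (-0.09 ± 0.11 and -0.22 ± 0.09), although Tyk2 was called lower with RLE size factors (adjusted p = 0.0465) and without scramble + IgG replicate 2, shMCT-1 + IgG replicate 2 or shMCT-1 + anti-IL-6R replicate 1 (-0.28 to -0.27). Of 8 negative regulators, 5 fell (62.5%, against 34.0% of all genes) and none rose (against 35.0%). Socs3, a feedback inhibitor of cytokine receptors, fell from 25.5 to 16.5 CPM (by 0.59 ± 0.09, adjusted p = 0.000137), and the phosphatases Ptpn1 and Ptpn11 fell by 0.22 ± 0.05 and 0.21 ± 0.05. The calls of Pias1 (-0.19 ± 0.08, adjusted p = 0.0469) and Irf2 (-0.22 ± 0.09, adjusted p = 0.0428), a repressor at ISRE sites, were narrow. Pias1 lost its call without any single library other than shMCT-1 + anti-IL-6R replicate 2 (-0.22 to -0.13), and Irf2 without any other than scramble + IgG replicate 1 or shMCT-1 + anti-IL-6R replicate 2 (-0.24 to -0.15). Socs1, Ptpn2 and Ptpn6 did not pass the test, but without scramble + IgG replicate 2 Socs1 was called lower (-0.36) and Ptpn2 higher (0.18).

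Of 12 tested genes that lead from nucleic acid sensing to interferon transcription, 4 rose and 4 fell (33.3% each), close to the 35.0% and 34.0% of all genes. Tmem173, encoding STING, rose from 1.73 to 8.31 CPM (2.31 ± 0.16, adjusted p = 6.6e-07), and Tlr3, Irf5 and Irf3 rose by 0.79, 0.71 and 0.33. Mavs, the adaptor of RIG-I and MDA5, fell from 55.9 to 36.6 CPM (by 0.56 ± 0.07, adjusted p = 5.09e-05). The ligases Traf6 and Traf3 and the kinase Tbk1 fell by 0.80, 0.79 and 0.30.

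A further list of 67 interferon-inducible genes held 37 tested genes, of which 21 rose (56.8%, against 35.0% of all genes), 8 fell (21.6%, against 34.0%) and 8 did not pass the test, with a median log2 fold change of 0.35. Oas1a, an oligoadenylate synthetase that makes the activator of RNase L, averaged 0.179 CPM in scramble and 4.41 CPM in shMCT-1 (4.62 ± 0.22, adjusted p = 4.33e-08). Its relative Oas1g had no count in any scramble library and 1.26 to 2.7 CPM in shMCT-1. Oas1a and Oas1g thus passed the filter through shMCT-1 libraries alone, which favors calls on the higher side. The share of this list without such genes was not taken. Apol9b rose from 0.726 to 15.8 CPM (4.5 ± 0.17), Apol9a from 0.543 to 3.35 CPM (2.63 ± 0.36), and Lgals9, encoding galectin-9, from 4.32 to 14.2 CPM (1.76 ± 0.10). Oas1a and Oas1g, like Apol9a and Apol9b, are close copies between which reads can be shared. At the other end, Rnf213, a large ubiquitin ligase, fell from 335 to 112 CPM (by 1.53 ± 0.11, adjusted p = 6.76e-07). Helz2 fell by 0.87 ± 0.09, Slfn9 by 0.70 ± 0.10, and Eif2ak2, encoding the double-stranded RNA-activated kinase PKR, by 0.44 ± 0.07, beside Gbp2b above.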

How the data were processed

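RNA from 8 libraries of 4T1 cells was sequenced by the authors in paired-end runs, trimmed with cutadapt 1.18, checked with FastQC and aligned with STAR 2.7.0d to mm10 with GENCODE annotation (given as release 19). The deposited values are expected counts per gene from RSEM, with 29.6% of the values above 0 not whole. Whether counting used strand is not given in the sources used here. Gene names and coordinates came from GENCODE M21 (GRCm38), matched on Ensembl IDs.

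Expected counts were rounded and CPM was taken on library totals. The filter kept genes above 1 CPM in 2 or more libraries, which were fitted with edgeR 4.0.16 in R 4.3.3 (TMM factors, quasi-likelihood test, Benjamini-Hochberg adjustment over all 12704 genes, call at an adjusted p under 0.05). Contrasts within a treatment, those of anti-IL-6R vs. IgG and the interaction used 4 group means, and shMCT-1 vs. scramble across both treatments used an additive model with treatment. Errors are standard errors of log2 fold changes or SD over libraries. Alternatives were RLE size factors, DESeq2 1.42.0, edgeR's exact test, other filters, only the libraries compared, thinning to the smallest library, a replicate block and leaving out each library. The code was tested on simulated data.

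Replicates of the same number were not tied by the labels, and their deviations correlated at -0.0797 to 0.106, so no pairing was used. Replicates of each group differed by more than sampling noise.

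The members and lists were chosen with earlier results of these data known. All members are named. Values in every library are given for Mcts1, for the 2 highest and 2 lowest log2 fold changes of each role (all where 4 or fewer were tested), for members called under a single treatment and for those with an unadjusted p under 0.05 with anti-IL-6R; from the further interferon-inducible genes the 5 highest and 5 lowest called are named. Ifit1, Rsad2, Bst2, Ifit2 and Tor3a were given ranges or values in addition, and the promoter stretches shown were picked after values were seen. A gene of the pathway lists is not reported here.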

Additional observations from a re-analysis of the deposited data

How the results depend on the processing

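Across both treatments, 17 of the 21 called members were called in each alternative in which they were tested; Adar, Herc6, Ifi27 and Parp14 were not. Leaving out 1 library gave 12 to 18 called members within IgG, 12 to 15 within anti-IL-6R and 17 to 22 across both treatments. Requiring more than 1 CPM in at least 7 libraries left 21 members tested and 9 called within anti-IL-6R (8 higher), against 15. With the replicate block, 17, 15 and 20 members were called within IgG, within anti-IL-6R and across both treatments, and 0 with anti-IL-6R. The block ended the call of Parp14 (adjusted p = 0.0521) and changed no other call of a member across both treatments. For all genes, 7720 to 10224 were called across both treatments over the alternatives. Without a filter, 64 and 133 genes were called for anti-IL-6R in scramble and shMCT-1 and 97 for the interaction, and no member.

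The genes that changed sign had not passed the test, and the cause was not tested. Thinning gave 0.011 for Irf7, -0.002 for Dtx3l and -0.014 for Xaf1, which was -0.0079 with RLE size factors and -0.0047 with DESeq2. Leaving out 1 library gave -0.23 to 0.10 for Irf7, -0.095 to 0.18 for Trim21, -0.14 to 0.18 for Dtx3l, -0.16 to 0.24 for Xaf1, -0.0057 to 0.083 for Ifngr2, -0.21 to 0.02 for Jak2 and -0.01 to 0.18 for Ptpn2. The 13 members under the filter had at most 1.27 CPM in any library and were not tested.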
